A study of Mus musculus with 6 samples.

Results

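The transforming growth factor beta (TGF-beta) pathway was examined in muscle satellite cells through 9 genes chosen by name: the ligands Tgfb1, Tgfb2 and Tgfb3, the receptors Tgfbr1, Tgfbr2 and Tgfbr3, the signal transducer Smad3, and the feedback inhibitors Smad7 and Skil. All 9 symbols matched an Entrez gene ID among the 27179 IDs counted in each library, and all 9 passed the filter on low counts. The source was muscle of C57Bl/6N mice of WT (wild-type) genotype fed either high fat (3 libraries) or chow (3 libraries), from which satellite cells, the resident stem cells that rebuild muscle fibres, had been sorted by flow cytometry. The series asked how the satellite cell transcriptome of obese mice differs from that of lean ones. The age and sex of the mice, the length of feeding, the sort markers, and whether each library came from a separate animal or a pool are not given in the sources used here, so p-values here speak only to the spread among 6 libraries, and technical spread may be part of it.

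TGF-beta ligands are secreted in a latent form, held by latent TGF-beta binding proteins in the matrix, and released by integrins, proteases or thrombospondin. The released dimer binds the type II receptor (Tgfbr2), which activates the type I receptor (Tgfbr1), and Smad2 and Smad3 are then phosphorylated, join Smad4 and enter the nucleus. Smad7 and Skil are themselves induced by the pathway and limit it. In skeletal muscle the pathway is known for restraining differentiation and fusion of myogenic cells and for driving fibrosis.

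Library totals ran from 14930394 to 18217818 counts. Levels are CPM, counts per 1000000 counts of a library whose total was scaled by TMM (trimmed mean of M-values), and a count of 3, the upper limit that a count of 0 allows, corresponded to 0.162 to 0.195 CPM, for counting error only. The satellite cell label was checked on 11 markers, which summed to between 4534 and 5690 CPM in every library. Of the 11, 6 had a positive and 5 a negative log2 fold change. At an unadjusted p under 0.05 in edgeR stood 2 on the higher side (Itga7 and Chrdl2) and 3 on the lower, where 3.70% and 3.95% of all genes did. The 3 lower were Pax7, Myod1 (206 ± 96.8 under the high-fat diet against 335 ± 54.3 CPM in chow) and Megf10 (249 ± 68.8 against 349 ± 56.0 CPM). The diets did not overlap for Pax7, lower under the high-fat diet (234 ± 57.3 against 402 ± 29.8 CPM; SD, n = 3 each), or for Itga7 (369 ± 42.3 against 245 ± 45.5 CPM) and Chrdl2 (436 ± 75.8 against 296 ± 44.1 CPM), both higher, and edgeR's adjusted p was 0.180, 0.328 and 0.373 for these 3 genes. Over all genes tested, the diets did not overlap for 15.3%, with 7.42% higher and 7.87% lower. The 9 markers of mature myofibres summed to 9.91 to 32.3 CPM and the 10 of immune cells to 11.4 to 57.3 CPM, with Adgre1, C1qa and Cd3e at 0 in all 6 libraries. The 10 markers of fibroblasts and fibro-adipogenic progenitors summed to 1136 to 1433 CPM under the high-fat diet and 1049 to 1224 CPM with chow. Of these 10, 9 were tested, 6 with a positive and 3 with a negative log2 fold change. The more abundant included Col3a1 (342 ± 55.8 under the high-fat diet, 360 ± 22.9 CPM in chow) and Dpt (340 ± 38.5, 247 ± 78.7), and the less abundant the defining marker Pdgfra (3.25 ± 2.84, 5.60 ± 2.44). Over the 6 libraries, the 10 endothelial markers summed to 252 to 440 CPM and the 7 of pericytes and smooth muscle to 524 to 766 CPM. The most abundant endothelial marker was Tek (161 ± 26.5 under the high-fat diet, 172 ± 58.4 CPM in chow). Cldn5 was at 1.53 ± 2.65 and 1.57 ± 1.55. Kdr, at 29.1 ± 8.79 and 11.0 ± 3.31 (edgeR adjusted p = 0.442), was the 1 endothelial marker whose diets did not overlap. Log2 fold changes were positive for 6 and negative for 4 of these 10. In the other list, Notch3 (539 ± 78.4, 599 ± 23.1) made up most of the sum. Rgs5 was at 13.9 ± 11.0 and 15.5 ± 11.3. All 7 log2 fold changes of that list were negative, as were 50.5% over all genes, and edgeR called 0. The diets overlapped in each of the 6 cell type sums. In bulk libraries, fewer cells of a type and less RNA per cell cannot be told apart.

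The list that separated the diets was the one compiled for the response to dissociation, made of immediate early and heat-shock genes. Its 22 members summed to 10960, 11750 and 15790 CPM in high-fat libraries 1, 2 and 3, and to 24750, 29270 and 31040 CPM in chow libraries 1, 2 and 3. Of the 22, 8 fell in edgeR's test, in which 0.167% of all genes fell. All 22 had a negative log2 fold change, and the median was -1.11 against -0.01 over all 13202 genes tested. Whether these genes differed through handling of the tissue or through diet was not tested. The part of this list in the results on TGF-beta genes was not tested either.

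**Figure D1:**
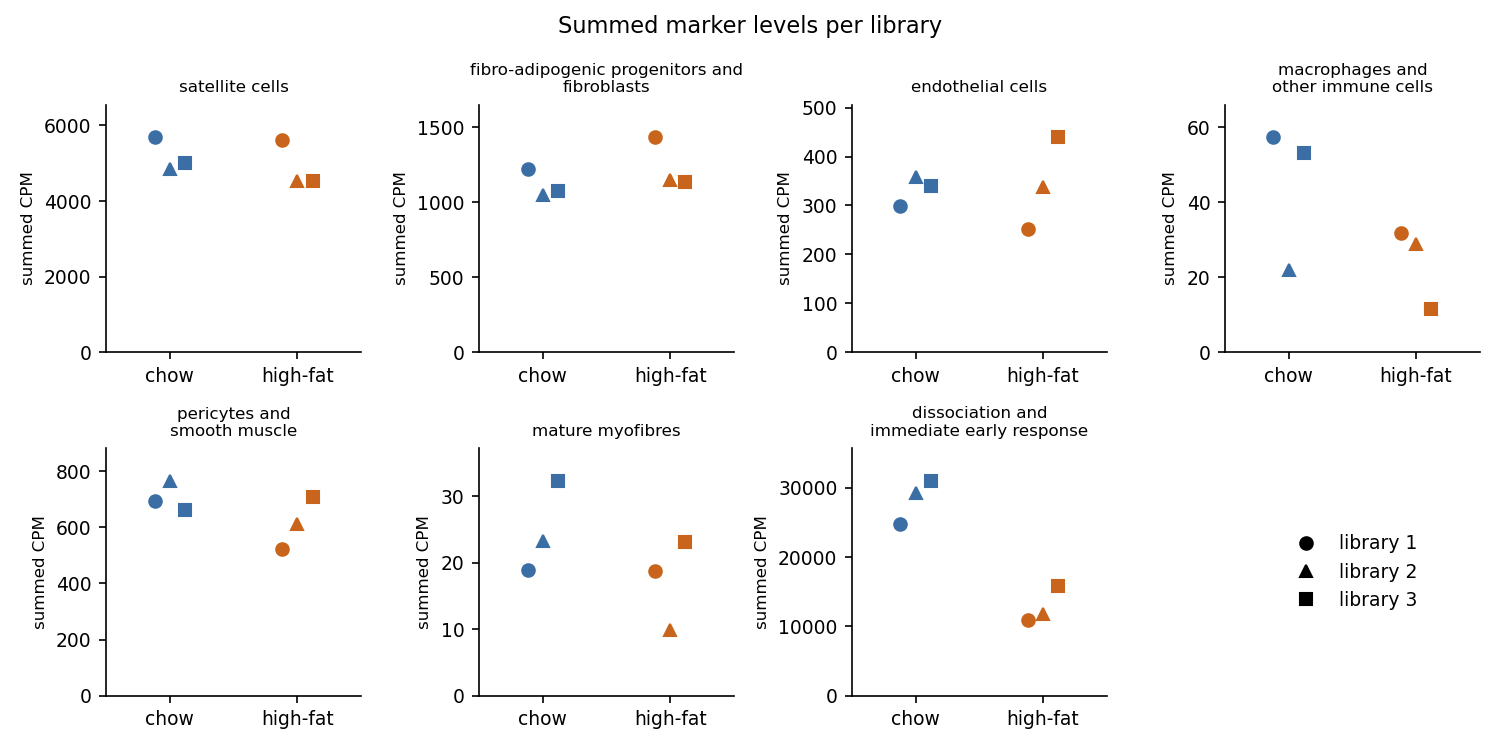
Summed CPM of each marker list (vertical axes) in the chow (blue) and high-fat diet (orange) libraries, with a symbol for each library number. The sums of the dissociation and immediate early list do not overlap between diets (10960 to 15790 CPM against 24750 to 31040 CPM), whereas those of the 6 cell type lists do.

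None of the 9 TGF-beta genes passed the test over all genes (edgeR's quasi-likelihood F test, Benjamini-Hochberg adjusted p under 0.05), in which 0.258% of the 13202 genes passed. At an unadjusted p under 0.05 stood 5 of the 9, Tgfb1 on the higher side and Tgfb2, Tgfb3, Tgfbr3 and Skil on the lower side, where 7.65% of all genes did (3.70% higher, 3.95% lower). By the other tools, DESeq2 called 1 of the 9, Tgfb2, and limma-voom called 0. Over all 13202 genes, DESeq2 called 198 and limma-voom 99, where edgeR called 34. Log2 fold changes were positive for 3 members and negative for 6, with a median of -0.38. The libraries of the diets stood fully apart for Tgfb1 (higher under the high-fat diet), Tgfb2 and Tgfbr3 (both lower). Over all genes, such separation was seen for 15.3%, with 7.42% higher and 7.87% lower. The 9 genes were chosen with earlier results of these data known, so their counts were set beside those of all genes without a test.

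**Figure D2:**
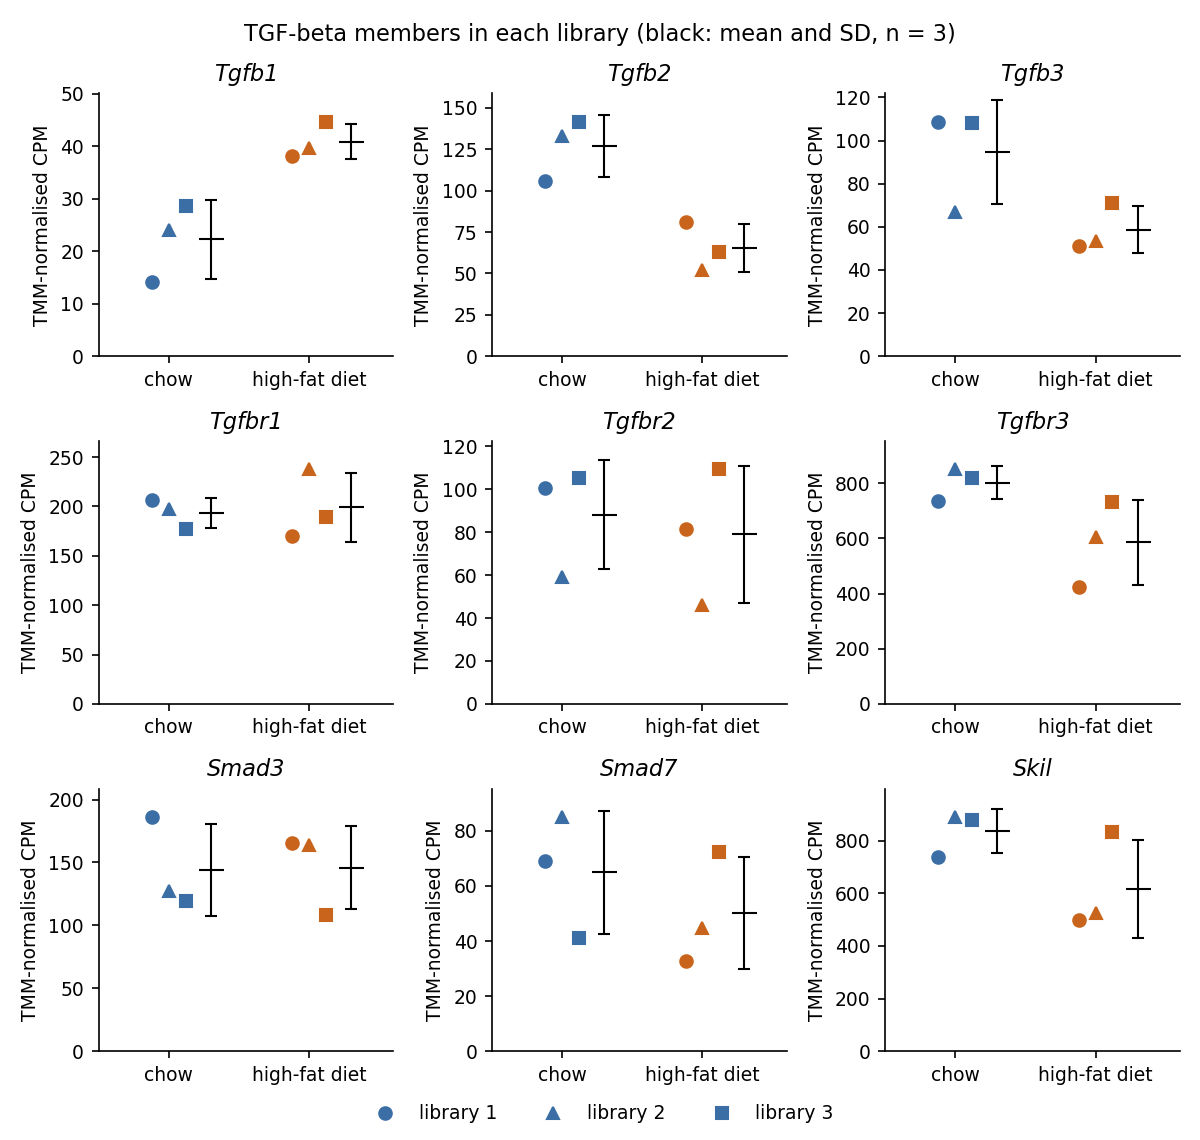
TMM-normalised CPM (vertical axes, from 0) of the 9 TGF-beta genes in each chow (blue) and high-fat diet (orange) library, with a symbol for each library number and the mean and SD (n = 3) in black. Tgfb1 lies at 38.2 to 44.7 CPM under the high-fat diet and 14.1 to 28.7 CPM with chow, Tgfb2 lies in the opposite order, and the diets overlap for Tgfb3, Tgfbr1, Tgfbr2, Smad3, Smad7 and Skil.

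The ligands did not share a direction, and the 2 whose diets stood apart, Tgfb1 and Tgfb2, had opposite signs. Tgfb2 encodes an isoform known from development, including that of the heart and skeleton. It was at 106, 133 and 142 CPM in chow libraries 1, 2 and 3, and at 81.1, 52.3 and 62.8 CPM in high-fat libraries 1, 2 and 3. Every high-fat library lay below every chow library. The means were 127 ± 18.5 CPM in chow and 65.4 ± 14.6 CPM under the high-fat diet (SD, n = 3 each), 1.94-fold lower by the fit (log2 fold change -0.96, SE 0.24, 95% interval -1.48 to -0.43), and the adjusted p in edgeR was 0.188. Of the members, Tgfb2 had the smallest p. It passed with DESeq2 (adjusted p = 0.0382) and in edgeR without a filter on low counts (adjusted p = 0.0477).

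Tgfb1, the isoform best known from fibrosis, lay the other way. Its values were 14.1, 24.1 and 28.7 CPM in chow libraries 1, 2 and 3, and 38.2, 39.8 and 44.7 CPM in high-fat libraries 1, 2 and 3. The high-fat libraries were close to each other, and all lay above the highest chow library. The means were 22.3 ± 7.46 and 40.9 ± 3.38 CPM (SD, n = 3 each), a log2 fold change of 0.88 (SE 0.39, 95% interval 0.03 to 1.72, edgeR adjusted p = 0.631). These levels rest on 224 to 829 counts per library, the smallest of the 3 ligands.

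Tgfb3 was at 109, 66.9 and 108 CPM in chow libraries 1, 2 and 3, and at 51.2, 53.6 and 71.1 CPM in high-fat libraries 1, 2 and 3. High-fat diet library 3 lay above chow library 2, so that the diets overlapped there. The means were 94.6 ± 24.0 and 58.6 ± 10.9 CPM (SD, n = 3 each), with a log2 fold change of -0.69 (SE 0.27, 95% interval -1.28 to -0.10, edgeR adjusted p = 0.517).

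The sequences just upstream of Tgfb1 and Tgfb2 are shown because these are the ligands whose libraries did not overlap between the diets, with opposite signs, although neither passed edgeR's test. They are the 250 bases before a RefSeq transcription start (GRCm38.p6), written 5′ to 3′ on the strand of the gene, and 5 of the 9 members had such a window. Tgfb1 lies on chromosome 7 (25687002 to 25705077, plus strand) and its window is chr7:25686752-25687001. Tgfb2 lies on chromosome 1 (186622787 to 186709697, minus strand), its window is chr1:186705990-186706239, and the start used is 3708 bases inside the annotated span of the gene. Capitals mark matches on either strand to the letters searched.
Tgfb1: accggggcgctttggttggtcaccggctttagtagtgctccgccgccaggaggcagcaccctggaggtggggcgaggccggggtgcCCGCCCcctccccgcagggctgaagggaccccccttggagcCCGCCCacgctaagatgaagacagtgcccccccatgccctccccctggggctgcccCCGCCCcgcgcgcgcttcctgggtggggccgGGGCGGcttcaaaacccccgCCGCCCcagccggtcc
Tgfb2: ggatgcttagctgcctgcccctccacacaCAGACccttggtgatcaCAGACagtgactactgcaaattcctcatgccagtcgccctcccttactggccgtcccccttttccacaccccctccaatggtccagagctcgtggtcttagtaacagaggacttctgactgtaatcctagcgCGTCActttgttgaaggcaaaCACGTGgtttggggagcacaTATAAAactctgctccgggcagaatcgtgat
The windows share none of the motifs searched. In the Tgfb1 window, 75.2% of bases were G or C, and the capitals are 5 matches to GGGCGG (the GC box), at 164, 123, 67, 36 and 16 bases before the start. In the Tgfb2 window, 53.6% of bases were G or C. Its capitals are 2 matches to CAGAC, the core of a Smad-binding element, at 221 and 204 bases, 1 match to TGACG, part of the cyclic AMP response element, at 72 bases, 1 to the E-box CACGTG at 51 bases, and 1 to the TATA box TATAAA at 31 bases before the start. Of all 32851 windows of 250 bases, 32.7% held GGGCGG at least 1 time, 42.2% CAGAC, 17.8% TGACG, 6.02% CACGTG and 12.4% TATAAA. The median share of G or C over all windows was 52.4%, and these percentages are not matched for it. The Smad palindrome GTCTAGAC was in 0.167% of windows and in neither of these. A match is a description of the letters and does not show that a factor binds there.

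Levels of different ligands were compared per kilobase of the gene's joined exons, within each library. The scaling between libraries plays no part in the share of each ligand, but it does enter the sum of the ligands. In chow libraries 1, 2 and 3, Tgfb1 made up 5.24%, 10.1% and 9.15% of the ligand transcripts. In high-fat libraries 1, 2 and 3 it made up 20.7%, 24.1% and 21.8%. The share was thus 8.14% ± 2.56 with chow and 22.2% ± 1.75 under the high-fat diet (SD, n = 3 each), and the libraries of the diets did not overlap. Tgfb2 held 40.7% ± 7.04 and 30.8% ± 6.39 and Tgfb3 held 51.2% ± 9.36 and 47.1% ± 5.31, with overlap of the diets for both. The sum of the ligands was 54.3 ± 7.38 CPM per kilobase with chow (47.5 to 62.1) and 36.7 ± 3.98 under the high-fat diet (32.8 to 40.7). With the longest annotated transcript as the length, which for Tgfb1 is 2573 bases in place of 5042, the share of Tgfb1 was 14.0% with chow and 34.6% under the high-fat diet.

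**Figure D3:**
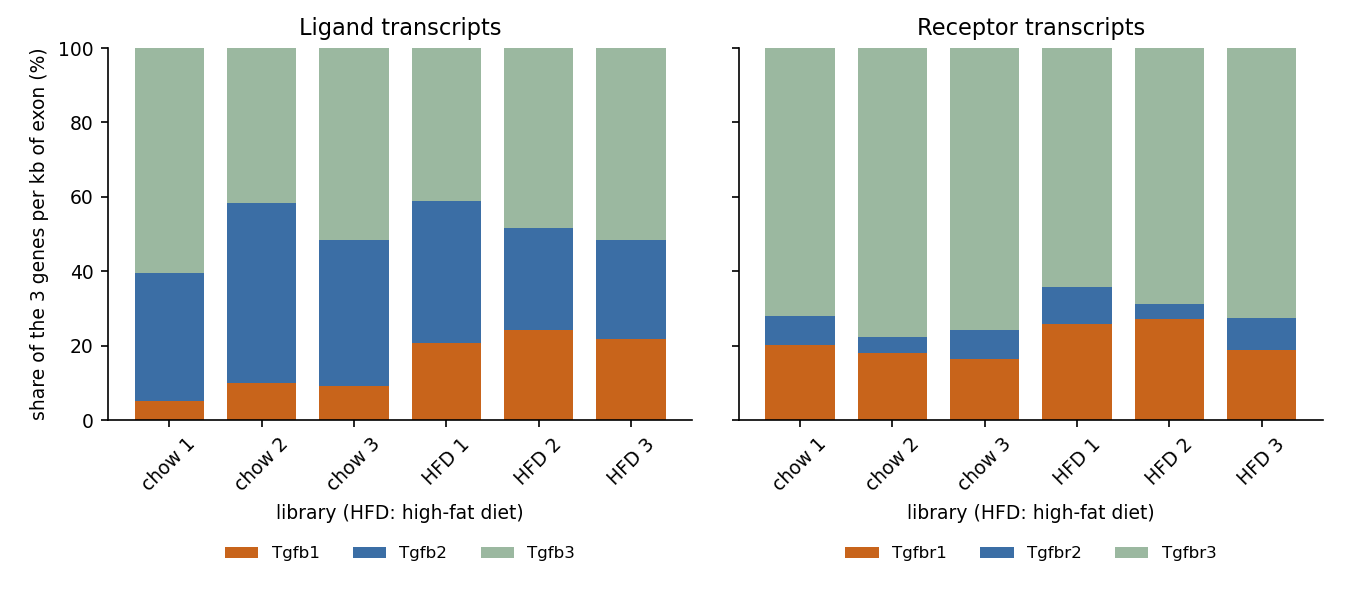
Share of each ligand (left) and each receptor (right) among the transcripts of its family of 3, in percent of CPM per kilobase of exon (vertical axis), 1 bar per library. The Tgfb1 share is 5.24% to 10.1% in the chow libraries and 20.7% to 24.1% in the high-fat libraries, whereas Tgfbr3 is the largest receptor share in all 6 libraries.

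Among the receptors, the co-receptor Tgfbr3 (betaglycan), which presents ligands and Tgfb2 in particular to the type II receptor, had the highest level per kilobase of exon in every library. It was at 735, 851 and 820 CPM in chow libraries 1, 2 and 3, and at 425, 604 and 731 CPM in high-fat libraries 1, 2 and 3. The diets were separated only by the small gap between high-fat library 3 and chow library 1. The means were 802 ± 60.0 and 587 ± 154 CPM (SD, n = 3 each), with a log2 fold change of -0.45 (SE 0.19, 95% interval -0.85 to -0.05, edgeR adjusted p = 0.570). Tgfbr3 accounted for 64.3% to 77.7% of receptor transcripts per kilobase over the 6 libraries.

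The type I receptor Tgfbr1, a serine/threonine kinase, was at 206, 197 and 177 CPM in chow libraries 1, 2 and 3, and at 170, 238 and 189 CPM in high-fat libraries 1, 2 and 3. The highest and the lowest value both came from the high-fat diet. The log2 fold change was 0.04 (SE 0.19, edgeR adjusted p = 1.00), and the 95% interval of the difference, -0.37 to 0.45, bounds what 3 libraries a group allow. The type II receptor Tgfbr2, the kinase that binds ligand and activates Tgfbr1, was at 101, 59.1 and 105 CPM in chow and at 81.7, 45.9 and 109 CPM under the high-fat diet. Library 2 was the lowest of each diet and library 3 the highest. The log2 fold change was -0.16 (SE 0.32, 95% interval -0.86 to 0.54, edgeR adjusted p = 0.999).

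Smad3, the transducer that binds DNA with Smad4, was at 186, 128 and 119 CPM in chow libraries 1, 2 and 3, and at 166, 164 and 108 CPM in high-fat libraries 1, 2 and 3. The ranges of the diets overlapped, at 119 to 186 CPM in chow and 108 to 166 CPM under the high-fat diet, and the means were 144 ± 36.5 and 146 ± 32.8 CPM (SD, n = 3 each). Its log2 fold change was 0.02 (SE 0.24, 95% interval -0.50 to 0.53, edgeR adjusted p = 1.00).

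Skil, whose product SnoN represses Smad complexes on DNA, is induced by the pathway it limits. It was at 739, 890 and 877 CPM in chow libraries 1, 2 and 3, and at 497, 524 and 831 CPM in high-fat libraries 1, 2 and 3. High-fat diet libraries 1 and 2 lay below all chow libraries, and library 3 lay within their range. The means were 835 ± 83.9 and 617 ± 186 CPM (SD, n = 3 each), with a log2 fold change of -0.44 (SE 0.19, 95% interval -0.85 to -0.02, edgeR adjusted p = 0.631). Smad7, which blocks the type I receptor and recruits ubiquitin ligases to it, was at 68.9, 85.0 and 41.0 CPM in chow and at 32.8, 44.8 and 72.4 CPM under the high-fat diet. The diets overlapped widely, with chow library 3 below 2 of the high-fat libraries. The log2 fold change was -0.38 (SE 0.36, 95% interval -1.14 to 0.39, edgeR adjusted p = 0.944).

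**Figure D4:**
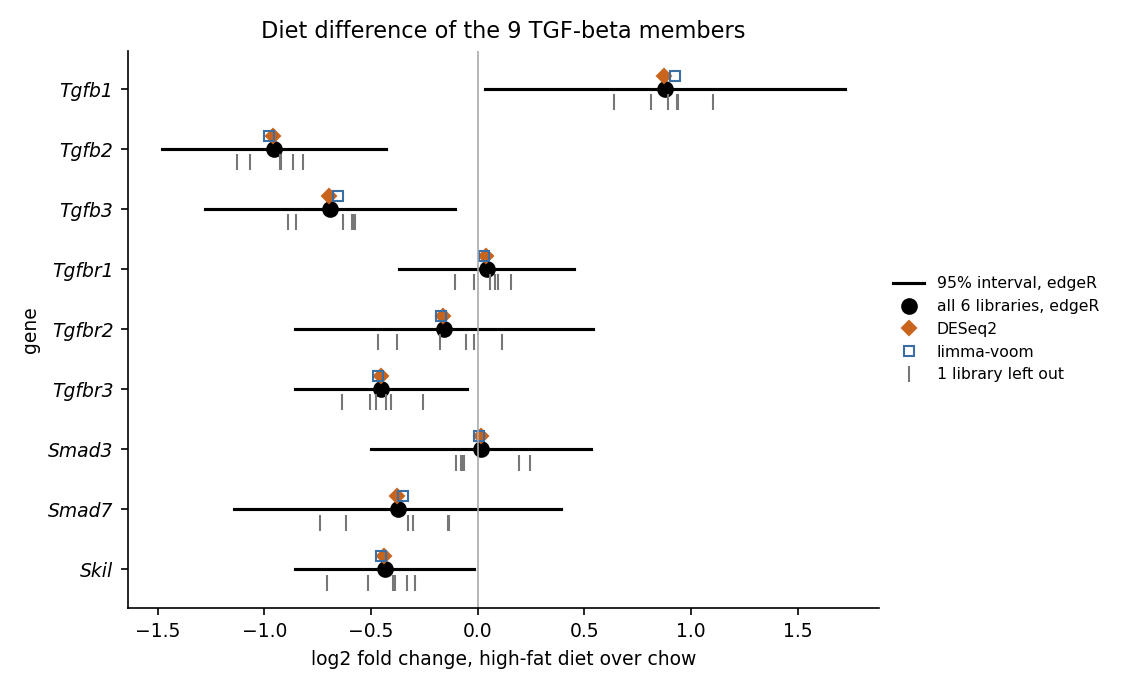
Log2 fold change of high-fat diet over chow (horizontal axis) for the 9 TGF-beta genes: edgeR estimate with its 95% interval (black), DESeq2 (orange diamonds), limma-voom (open squares) and the 6 edgeR fits that leave out 1 library (grey ticks). Tgfb2 keeps a value between -1.13 and -0.82 in those 6 fits and Tgfb1 one between 0.64 and 1.10, whereas the ticks of Tgfbr1, Tgfbr2 and Smad3 lie on both sides of 0.

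Ordered by mean level per kilobase of joined exons in chow, the members ran from Tgfbr3 (123 ± 9.17 CPM per kilobase) through Skil (86.1 ± 8.65), Tgfbr1 (29.6 ± 2.31), Tgfb3 (28.0 ± 7.09), Smad3 (26.1 ± 6.58), Tgfb2 (21.9 ± 3.20), Smad7 (14.4 ± 4.92) and Tgfbr2 (10.8 ± 3.10) to Tgfb1 (4.42 ± 1.48; SD, n = 3). The gaps between Tgfbr1, Tgfb3, Smad3 and Tgfb2, and that between Smad7 and Tgfbr2, were smaller than the larger SD of the neighbours. With the high-fat diet Tgfbr3 (89.6 ± 23.5) and Skil (63.7 ± 19.1) were again the highest. Tgfb1 (8.11 ± 0.671) was the lowest but within the SD of its neighbour Tgfbr2, and Tgfb2 (11.3 ± 2.52) stood beside Smad7 (11.1 ± 4.49) and Tgfbr2 (9.65 ± 3.89). With the longest transcript as the length, Tgfb1 was at 15.9 ± 1.31 and Tgfb2 at 12.8 ± 2.85 CPM per kilobase under the high-fat diet. Smad7 was then at 11.7 ± 4.75 and Tgfbr2 at 9.76 ± 3.93, so Tgfb1 was no longer the lowest. The order of Tgfb1 against these genes there depends on the length used. By the longest transcript, Tgfbr3 and Skil lay within the SD of each other. They were at 132 ± 9.86 and 124 ± 12.5 in chow, and at 96.4 ± 25.3 and 91.9 ± 27.6 under the high-fat diet. In chow Tgfb1 stayed below Tgfb2 with both lengths, at 8.65 ± 2.90 against 24.8 ± 3.62 CPM per kilobase of longest transcript.

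Reads were counted with no strand setting given in the sources used here. Overlaps were taken from whole gene spans, so exons need not overlap. No gene model that overlaps a member was found by symbol among the counted IDs. Tgfb2 overlaps Gm26169 and Gm35655, Tgfbr1 (chromosome 4, 47353222 to 47414926) overlaps Gm32435, Tgfbr2 (chromosome 9, 116087695 to 116175363) overlaps Gm31292, Tgfbr3 (chromosome 5, 107106567 to 107289629) overlaps Gm8145, Smad3 (chromosome 9, 63646766 to 63757994) overlaps Gm51710 and Smad7 (chromosome 18, 75367365 to 75395935) overlaps Gm41776, so that some of their reads may belong to those gene models. Tgfb1, Tgfb3 (chromosome 12, 86056743 to 86079041) and Skil (chromosome 3, 31095058 to 31122923) overlap no other gene of the RefSeq table.

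For the 3 members whose diets did not overlap, the genes most alike in log2 CPM over the 6 libraries were searched among 9269 genes, as a description. Those nearest to Tgfb1 were the intermediate filament gene Vim (Pearson r = 0.991), Dph2 (0.984) and Ckap4 (0.981), a membrane protein of the endoplasmic reticulum. Those nearest to Tgfb2 were Tmed8 (0.991), Son (0.991), a nuclear speckle protein, and the collagen gene Col19a1 (0.989). Those nearest to Tgfbr3 were Supt20 (0.996), the myosin light chain gene Myl9 (0.996) and Trub1 (0.990). All these values share the same 6 libraries, and none of these 9 genes passed the test of diet over all genes in edgeR, with adjusted p from 0.327 to 0.961.

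Beyond the 9 members, 93 other pathway genes were grouped by role, and 85 of them passed the filter. Of the 85, 1 rose and 3 fell under the high-fat diet in edgeR's test over all genes, where 0.0909% of genes rose and 0.167% fell. The median log2 fold change was 0.07 against -0.01 over all genes tested. All 4 that passed were among the 31 transcriptional targets tested, a list with a median of -0.06.

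Vcan, the matrix proteoglycan versican, rose. It was at 41.9, 37.3 and 33.1 CPM in chow libraries 1, 2 and 3, and at 158, 99.3 and 106 CPM in high-fat libraries 1, 2 and 3. The diets lay far apart, with a log2 fold change of 1.70 (SE 0.27, edgeR adjusted p = 0.0194), and the gene overlaps Gm4117 and Gm16318. Bhlhe40, a transcription factor of the basic helix-loop-helix class, fell 3.01-fold, from 397 ± 38.3 to 132 ± 28.8 CPM (SD, n = 3 each, edgeR adjusted p = 0.00323). Ccn1, a matricellular protein also known as an immediate early gene, fell 2.30-fold, from 325, 506 and 351 CPM in chow libraries 1, 2 and 3 to 193, 139 and 182 CPM in high-fat libraries 1, 2 and 3 (edgeR adjusted p = 0.0326). Junb, an AP-1 subunit that is also a member of the dissociation and immediate early list above, fell 2.16-fold, from 1273 ± 82.5 to 590 ± 193 CPM (edgeR adjusted p = 0.0394). Bhlhe40 passed in each of the 6 edgeR fits with 1 library left out. Leaving out either high-fat library 3 or chow library 1 kept Vcan and Ccn1 past the threshold, and leaving out any of the other 4 libraries did not (highest adjusted p 0.108 and 0.197). Junb passed only without high-fat library 3. Bhlhe40 overlaps 0610040F04Rik, so some of its reads may belong there.

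Of the 31 targets tested, 5 on the higher and 4 on the lower side stood at an unadjusted p under 0.05 in edgeR. These counts include the targets that passed, and over all genes 3.70% and 3.95% stood there. The diets did not overlap for 4 targets on the higher and 4 on the lower side, against 7.42% and 7.87% of all genes. Other targets did not pass in edgeR, and 3 of them were singled out after their values were seen. Ccn2, the connective tissue growth factor, was at 173, 162 and 213 CPM in chow and at 290, 220 and 222 CPM under high-fat feeding (log2 fold change 0.42, SE 0.19, edgeR adjusted p = 0.650). Every high-fat library lay above every chow library for Ccn2, as was so for 7.42% of all genes. Cdkn1a, the cell cycle inhibitor p21, had a log2 fold change of -0.84 (SE 0.24, edgeR adjusted p = 0.279), and Timp3, an inhibitor of matrix proteases, one of 0.67 (SE 0.21, edgeR adjusted p = 0.322). Timp3 passed in edgeR without a filter on low counts (adjusted p = 0.0471). Tagln and Tgfbi also stood on the higher side at an unadjusted p under 0.05. Their log2 fold changes were 0.86 (SE 0.37, edgeR adjusted p = 0.605) and 1.515 (SE 0.69, edgeR adjusted p = 0.647), and the diets overlapped for Tgfbi.

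**Figure D5:**
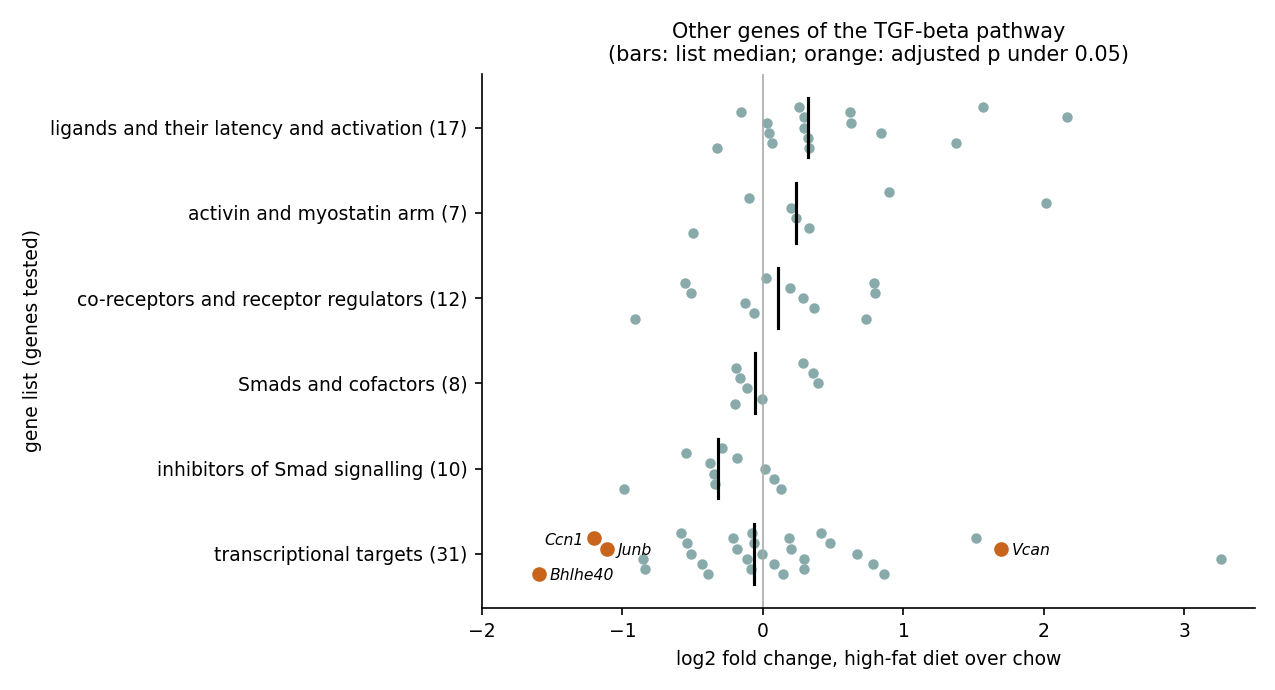
Log2 fold change of high-fat diet over chow (horizontal axis) for the other TGF-beta pathway genes tested, by list (vertical axis), with the median of each list as a bar and the 4 genes that passed edgeR's test in orange. Fbn2, which had no counts in chow, lies outside the axis and is not drawn, and the list medians run from -0.32 to 0.32.

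In the list of ligand latency and activation, edgeR called 0 of the 17 genes tested, with 3 on the higher side at an unadjusted p under 0.05, where 3.70% of all genes stood. These were Emilin1, Bgn and Fbn2. Fbn2 passed the filter only through the high-fat libraries, so its p-values support nothing and its values are given as a description. DESeq2, which called 198 of the 13202 genes, called Emilin1, and Fbn2 with that same limit. Of this list limma-voom, which called 99 over all genes, called 0. In the 4 lists described after this one, DESeq2 and limma-voom called 0 genes as well. Log2 fold changes were positive for 15 genes and negative for 2, where 49.5% of all genes were positive, with a median of 0.32. The 15 include Fbn2 and Ltbp2, whose signs support nothing. Ltbp2 also needed the high-fat libraries to pass the filter. It was at 0, 1.34 and 0 CPM in chow libraries 1, 2 and 3, and at 1.63, 1.66 and 2.80 CPM in high-fat libraries 1, 2 and 3. Emilin1, an elastic fibre protein that inhibits processing of the TGF-beta precursor, was at 23.2, 19.9 and 36.7 CPM in chow libraries 1, 2 and 3, and at 58.9, 83.3 and 64.9 CPM in high-fat libraries 1, 2 and 3 (log2 fold change 1.38, SE 0.34, edgeR adjusted p = 0.166). The diets did not overlap for Emilin1, as was so on the higher side for 7.42% of all genes. The gene passed with DESeq2 (adjusted p = 0.0242) and in edgeR without a filter on low counts (adjusted p = 0.0140). Bgn, the proteoglycan biglycan, which binds TGF-beta, was at 109 ± 6.94 CPM in chow and 168 ± 16.0 CPM under the high-fat diet (edgeR adjusted p = 0.328). Ltbp1, a latent TGF-beta binding protein, was at 472 ± 51.1 and 577 ± 40.8 CPM (edgeR adjusted p = 0.742). Fbn2, a microfibril protein, had 0 counts in all 3 chow libraries and lay at 5.53, 3.20 and 5.23 CPM in high-fat libraries 1, 2 and 3. Its mean was at least 26.1-fold higher than a floor of 3 counts per chow library. The median of the list was the same, 0.32, with Fbn2 set at that bound.

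The activin and myostatin arm signals through the same Smads. Of its 12 genes 7 passed the filter, edgeR called 0 of these, with 1 (Fstl3) on the higher side at an unadjusted p under 0.05 (3.70% of all genes), and the median was 0.24. Mstn, the muscle growth inhibitor myostatin, had 0 counts in all 6 libraries. Fst did not pass the filter. It was at 6.72, 1.98 and 0.230 CPM in chow libraries 1, 2 and 3, and at 0.325, 0.448 and 0.324 CPM in high-fat libraries 1, 2 and 3, with overlap of the diets. Fstl3, a secreted antagonist of activin and myostatin, overlaps Prss57 and was at 3.45, 7.70 and 3.16 CPM in chow libraries 1, 2 and 3, and at 30.6, 18.2 and 9.22 CPM in high-fat libraries 1, 2 and 3. The diets did not overlap for Fstl3, as was so on the higher side for 7.42% of all genes. The spread within the high-fat diet was wide (log2 fold change 2.02, SE 0.74, edgeR adjusted p = 0.447). The activin subunit gene Inhbb was at 33.6 ± 6.03 CPM in chow and 39.6 ± 7.70 CPM under the high-fat diet, and the receptor genes Acvr2b and Acvr1b had log2 fold changes of 0.90 (SE 1.17) and 0.33 (SE 0.56). 

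Co-receptors and receptor regulators had a median of 0.11 over 12 genes, of which edgeR called 0, with 2 on the higher side at an unadjusted p under 0.05 (3.70% of all genes). These were Strap, an adaptor that holds Smad7 on the receptor, at 60.5 ± 13.8 CPM in chow and 105 ± 9.89 CPM under the high-fat diet, and Fkbp1a, the prolyl isomerase FKBP12 that keeps Tgfbr1 inactive without ligand, at 45.7 ± 11.4 and 75.9 ± 2.03 CPM (SD, n = 3 each, edgeR adjusted p = 0.343 and 0.502). For both, every high-fat library lay above every chow library, as was so for 7.42% of all genes. Pmepa1, a target that sequesters Smads, was at 440 ± 43.8 and 566 ± 133 CPM, and Cav1, the caveolar protein that takes up receptors, at 525 ± 46.8 and 640 ± 113 CPM (edgeR adjusted p = 0.700 and 0.787).

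Smads and their cofactors had a median of -0.06 over 8 genes, and edgeR called 0, with 0 also at an unadjusted p under 0.05. Smad4, the common partner, had a log2 fold change of 0.39 (SE 0.25), the ubiquitin ligase gene Rnf111 0.36 (SE 0.27), and the acetyltransferase genes Crebbp and Ep300 -0.20 (SE 0.16) and -0.19 (SE 0.17). Smad2, the other transducer beside Smad3 and singled out after its values were seen, was at 91.5 ± 14.7 CPM in chow and 81.7 ± 22.7 CPM under the high-fat diet (edgeR adjusted p = 0.993). Inhibitors of Smad signalling had a median of -0.32 over 10 genes, with 3 positive and 7 negative signs (50.5% of all genes were negative) and 0 passing in edgeR or at an unadjusted p under 0.05. The homeodomain repressor gene Tgif1 was at 475 ± 96.2 and 373 ± 26.3 CPM and the ubiquitin ligase gene Smurf1 at 77.1 ± 6.38 and 52.8 ± 13.8 CPM in chow and the high-fat diet (edgeR adjusted p = 0.698 and 0.707). For both, every high-fat library lay below every chow library, as was so for 7.87% of all genes. Trim33 and Tgif2 had log2 fold changes of -0.34 (SE 0.27) and -0.99 (SE 0.85). The value of Tgif2 was -1.81 without high-fat library 3 and -0.35 without chow library 2. Ski, the closest relative of Skil and likewise singled out after its values were seen, was at 430 ± 15.0 CPM in chow and 469 ± 24.8 CPM under high-fat feeding (log2 fold change 0.13, SE 0.15, edgeR adjusted p = 0.972).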

How the data were processed

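RNA-seq measured 6 libraries, 3 per diet. Per the labels' protocols, cells were sorted by flow cytometry, ribosomal RNA was depleted, and 75-bp single reads were sequenced. The authors deposited raw whole-number counts for each Entrez gene ID. Tools and builds named in the submitters' processing notes are featureCounts, Bowtie2, mm10 and GRCm38. Their versions, strand setting and annotation release are not given in the sources used here.

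Of 27179 IDs, 25275 matched a RefSeq symbol (GRCm38.p6), 18 matched through GENCODE M21, and 1886 matched none. Exon lengths came from GENCODE M21. Counts were fitted in R 4.3.3 with edgeR 4.0.16 (filterByExpr, minimum count 10, TMM, glmQLFit and glmQLFTest, two-sided) with diet as the only factor. P-values were adjusted by Benjamini-Hochberg over all 13202 genes tested and called under 0.05. The SE was taken as the size of the log2 fold change over the root of its F statistic. The script was checked on simulated counts. Chi-square per degree of freedom between any pair of libraries was 60.6 to 136.9, far above sampling noise. No pair was therefore treated as the same library sequenced again, and all 6 were kept. The value cannot tell separate animals from separate preparations of a pool.

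The members and lists were chosen with earlier results of these data known. Named were all members, and per list every gene that passed plus those of smallest p up to 4 in all, and, for members whose diets did not overlap, the 3 genes most correlated in log2 CPM (prior count 2, mean of at least 5 CPM). Alternatives were 3 other scalings, 2 other filters, DESeq2 1.42.0, limma-voom (limma 3.58.1), robust dispersions, a threshold of 0.1, fits without mitochondrial genes or with libraries left out, and a replicate block. The other lengths for ligand shares were chosen after seeing the data.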

Additional observations from a re-analysis of the deposited data

How the results depend on the processing

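The number of genes called over all genes was 163 without a filter on low counts, 198 with DESeq2 and 99 with limma-voom, against 34, and 1 without both high-fat library 1 and chow library 3. It ran from 9 (without high-fat library 2) to 44 when 1 library was left out. Of the 9 members, 1 was called without a filter and 1 with DESeq2, in both cases Tgfb2, against 0, and 0 in every fit with 1 library left out. The number of other pathway genes called, 4 (1 higher, 3 lower), was 6 (3 higher, 3 lower) both without a filter and with DESeq2, ran from 1 to 4 when 1 library was left out and was 0 without both high-fat library 1 and chow library 3. The replicate block gave 45 genes called, 0 members and 4 other pathway genes. Same-numbered libraries showed deviations from the diet means that correlated at 0.0245, 0.0346 and -0.0261 across genes, not every library correlated best with its own number, and the labels do not say what the number marks, so the numbers were not taken to pair the libraries.

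Tgfb1, Tgfb2, Tgfb3, Tgfbr3, Smad7 and Skil kept the sign of their log2 fold change in all 18 alternatives. The sign changed for members near 0. Smad3 was at -0.07 without high-fat library 1, -0.08 without high-fat library 2, -0.07 without chow library 2, -0.10 without chow library 3 and -0.19 without both high-fat library 1 and chow library 3. Its range with 1 library left out reached 0.25. Tgfbr1 was at -0.11 without high-fat library 2 and -0.02 without chow library 3 (0.15 without high-fat library 1), and Tgfbr2 at 0.11 without high-fat library 2 (-0.47 without high-fat library 3). Among the other named genes, Smad2 was at 0.048 without high-fat library 2 (-0.31 without high-fat library 3) and Smad4 at -0.011 without both libraries (0.53 without high-fat library 2). Bhlhe40, Vcan, Ccn1 and Junb did not pass without both (edgeR adjusted p = 0.142, 0.231, 0.201 and 0.444), and Junb did not pass with library totals as the only scaling (adjusted p = 0.0573). The 3 other scalings moved the median log2 fold change of all genes by at most 0.0157.

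The difference in the Tgfb1 share of ligand transcripts, 14.0 percentage points, was 20.6 points with the longest transcript as the length, since the Tgfb1 length then changed most. Over fits with 1 library left out it ran from 12.6 to 15.0 points, that of Tgfb2 from -13.6 to -6.10 and that of Tgfb3 from -8.88 to 0.48. Depth limits the low genes: Tgfb1 rests on as few as 224 counts in a library.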

Other observations

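Within the 6 libraries, Tgfbr3 and Skil followed each other most closely among the members, with a Pearson r of 0.916 in log2 CPM. The pair of lowest r was Tgfb1 and Tgfb3, at -0.685. Tgfb1 had a negative r with each of the other 8 members, from -0.685 to -0.112. These are descriptions over 6 libraries that share the diets, and no test was made of them.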
